A study of Mus musculus with 14 samples.

Results

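Cerebral venous sinus thrombosis (CVST) is a clot in the large veins that drain the brain, so that blood backs up in the tissue they serve. Here 10 genes of oxygen sensing and glycolysis were followed in mouse cerebral cortex after CVST. They are Hif1a, Slc2a1, Hk2, Pfkfb3, Aldoa, Pgk1, Ldha, Slc16a3, Pdk1 and Bnip3, chosen by name. The 10 symbols matched 11 of the 55894 entries of the deposited count table, because Aldoa is listed under a pair of identifiers. In the entries used for Hif1a, Pfkfb3, Aldoa, Ldha and Pdk1 the Ensembl identifier is joined to that of an assembled locus. Their reads may therefore include more than the annotated gene. RNA was sequenced from cortex of both hemispheres, taken 2 days after CVST (CVST-2d, n = 5 samples), 7 days after it (CVST-7d, n = 5) or after a sham operation (sham, n = 4). The labels give no mouse strain, sex, age or genotype, and no collection time for the sham samples. They number the samples within a group without saying that each came from its own mouse, so a p-value here measures the spread between samples, which may be technical in part.

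Cells short of oxygen rely on glycolysis, which makes ATP from glucose without mitochondria. The switch is run by hypoxia-inducible factor (HIF), a pair of proteins that binds DNA at hypoxia response elements. Its alpha subunit is destroyed while oxygen is plentiful and is controlled mainly as a protein rather than as an mRNA. The other 9 genes are textbook HIF targets that import glucose, break it down, turn pyruvate into lactate, export lactate, keep pyruvate out of mitochondria or start the removal of mitochondria. Brain tissue lives almost wholly on blood glucose, and astrocytes are its main glycolytic and lactate-releasing cells.

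The core letters of a hypoxia response element are ACGTG or GCGTG. They were searched on both strands in RefSeq promoter windows of build GRCm38.p6, which run from 250 bases before a gene's start site to 50 bases after it. All 10 genes matched a window, with 15 windows in all because some have several start sites, and 13 of the 15 held either motif. The Aldoa windows with a motif overlap and hold the same site, at -126 in 1 window and at -202 in the other. That site is therefore counted in both windows. Each of the 10 genes had either motif in at least 1 window, and 9 had ACGTG, the exception being Pdk1, which had GCGTG alone. Among all 32851 windows of the same length, 19.6% held ACGTG, 32.4% held GCGTG and 43.8% held either. The genes' windows ranged from 40.3% to 73.3% G and C, against a median of 52.7% over all windows. All but the first Aldoa window (52.7%) and the second Pdk1 window (40.3%) lay above that median. The shares over all windows are thus not matched for G and C. They are also shares of windows, whereas a gene was counted if any of its windows held the motif. The counts by gene therefore cannot be set beside them. Where ACGTG is preceded by C it also spells CACGTG, the E-box, which 7.15% of all windows held. The windows of Hk2 and Ldha, the genes called below, and of Pgk1 and Aldoa, which were highest and lowest in the same samples as Ldha, are shown 5′ to 3′ on the gene's strand, with either motif in capitals on whichever strand it lies:
Hk2, chr6:82774405-82774704, minus strand: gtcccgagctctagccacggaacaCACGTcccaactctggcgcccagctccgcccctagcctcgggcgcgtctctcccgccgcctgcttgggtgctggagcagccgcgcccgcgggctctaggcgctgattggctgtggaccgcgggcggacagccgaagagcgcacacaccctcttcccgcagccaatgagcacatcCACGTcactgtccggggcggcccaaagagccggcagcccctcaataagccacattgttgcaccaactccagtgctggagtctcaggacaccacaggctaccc
Ldha, chr7:46845554-46845853, plus strand: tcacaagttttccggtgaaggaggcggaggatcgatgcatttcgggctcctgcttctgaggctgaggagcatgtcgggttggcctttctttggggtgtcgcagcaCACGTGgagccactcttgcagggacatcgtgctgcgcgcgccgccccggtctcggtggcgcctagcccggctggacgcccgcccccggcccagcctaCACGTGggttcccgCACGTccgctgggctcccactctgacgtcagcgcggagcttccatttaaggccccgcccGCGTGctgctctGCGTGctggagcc
Pgk1, chrX:106186850-106187149, plus strand: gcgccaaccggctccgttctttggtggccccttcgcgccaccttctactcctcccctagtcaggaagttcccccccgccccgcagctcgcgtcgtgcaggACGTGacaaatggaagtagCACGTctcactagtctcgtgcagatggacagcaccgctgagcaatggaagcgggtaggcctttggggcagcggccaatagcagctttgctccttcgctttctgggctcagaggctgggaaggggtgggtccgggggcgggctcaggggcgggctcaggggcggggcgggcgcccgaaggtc
Aldoa, chr7:126799205-126799504, minus strand: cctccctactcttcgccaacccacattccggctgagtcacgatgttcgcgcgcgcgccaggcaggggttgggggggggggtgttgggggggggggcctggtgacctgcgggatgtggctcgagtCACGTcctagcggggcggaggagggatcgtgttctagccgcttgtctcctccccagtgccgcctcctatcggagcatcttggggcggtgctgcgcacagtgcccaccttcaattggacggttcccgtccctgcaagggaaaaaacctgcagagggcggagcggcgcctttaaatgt
The Hk2 window held 2 separate sites, which begin at positions -226 and -52 from the start site. The first Ldha start site had 5 separate sites, 2 of them E-boxes, and the second Ldha window had 2. The Pgk1 sites begin at -150 and -131, and the Aldoa site shown begins at -126 from the second of its 3 listed starts. A match is a string of letters and was not tested for binding, and the groups cannot be compared on it.

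Each sample had 14696104 to 20798651 counts in genes. Along the first principal component, which took 33.1% of the variance, CVST-2d sample 5 and CVST-7d sample 2 lay beside the sham samples, so results are also given without both of them. Summed markers of excitatory cortical neurons were high in every sample (3939 to 4695, 3085 to 4900 and 3747 to 4901 CPM, counts scaled to the library's depth, in CVST-2d, CVST-7d and sham). Markers of striatum ran from 216 to 1376 CPM and of choroid plexus from 8.15 to 883 CPM over the 14 samples, so these markers of neighbouring tissue differed widely between samples.

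**Figure D1:**
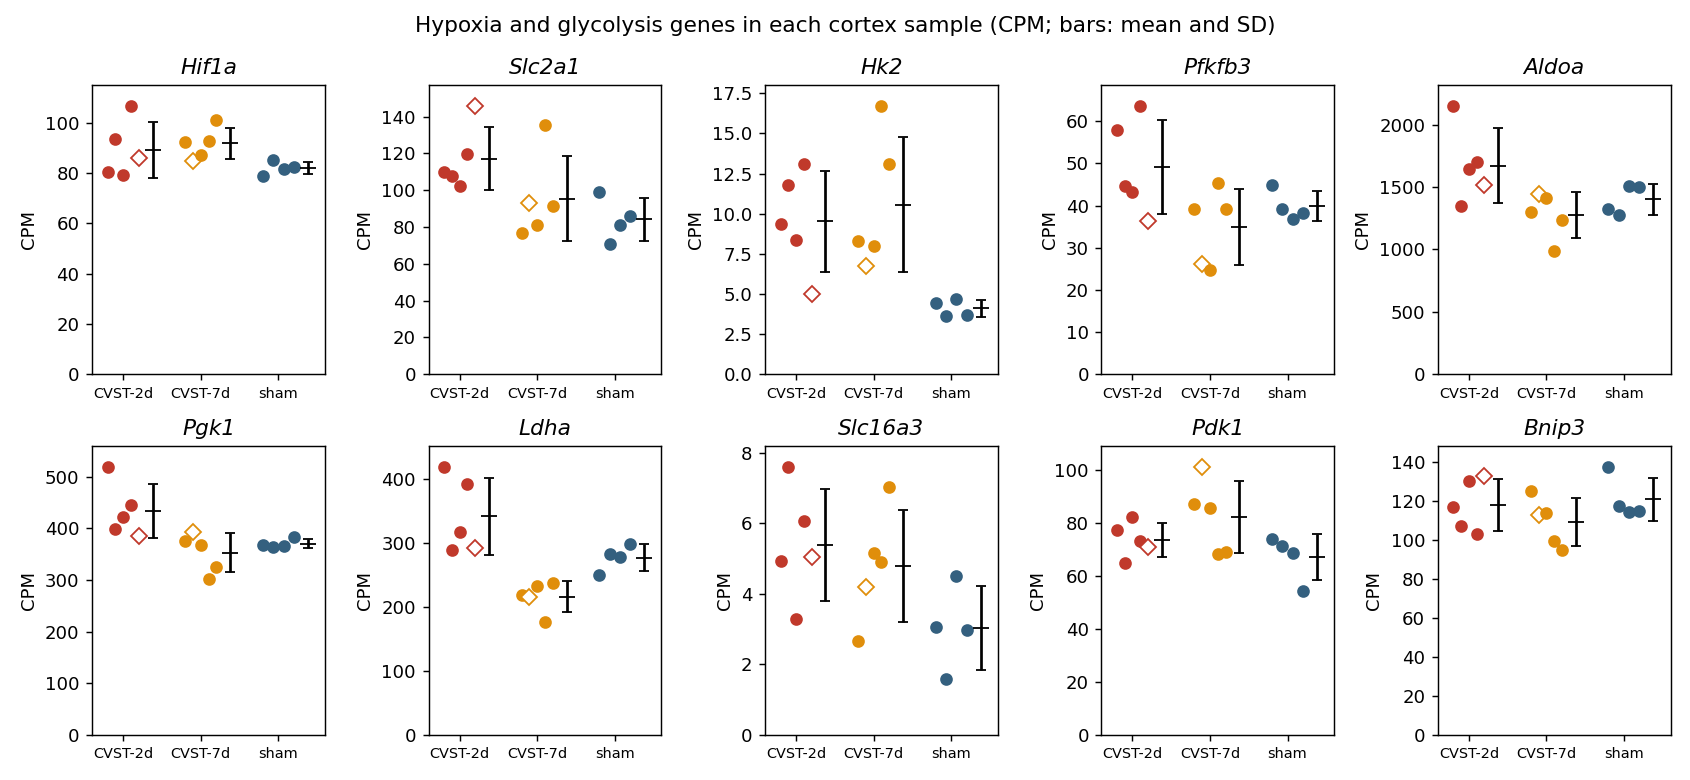
Level of each of the 10 genes (vertical axes, CPM, from 0) in the 5 CVST-2d, 5 CVST-7d and 4 sham cortex samples, with the mean and SD at the right of each group. Open diamonds mark CVST-2d sample 5 and CVST-7d sample 2; Hk2 lay above every sham sample at both times, and all 5 CVST-7d values of Ldha lay below all 5 CVST-2d values.

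Per transcript length the 10 genes differed widely in level. On the deposited FPKM scale, which divides by transcript length as well as depth, sham cortex held a mean of 1113 ± 107 Aldoa, 229.7 ± 7.15 Pgk1, 204 ± 17.7 Ldha and 79.2 ± 6.72 Bnip3 (SD, n = 4 each). Slc2a1 followed with 31.5 ± 4.56, Hif1a with 18.8 ± 0.135, Pdk1 with 13.9 ± 1.85 and Pfkfb3 with 9.18 ± 0.647 FPKM. At the bottom stood Slc16a3 with 1.42 ± 0.438 and Hk2 with 0.843 ± 0.147 FPKM, and of neighbours in this order only these last 2 had ranges that overlapped in sham (0.99 to 2.03 and 0.67 to 1.02). Pgk1 and Ldha overlapped in CVST-2d, as did Pdk1 and Pfkfb3 there, Hif1a and Pdk1 overlapped in CVST-7d, and Slc16a3 and Hk2 overlapped at both times. The mean order was the same in all 3 groups.

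Of the 10 genes, Hk2 was higher at both times after CVST, and Ldha was lower at 7 d than at 2 d. These were the calls of edgeR's quasi-likelihood test, fitted on all 14 samples with Benjamini-Hochberg adjustment over the 16918 genes tested and a threshold of 0.05, at which all 10 genes were tested. CVST-2d against sham called 1 of the 10 higher and 0 lower, where 3.95% of all genes were called (2.98% higher, 0.969% lower). CVST-7d against sham likewise called 1 higher and 0 lower, where 4.44% of all genes were called (3.61% higher, 0.833% lower). CVST-7d against CVST-2d called 0 higher and 1 lower, where 2.8% were called (1.54% higher, 1.25% lower). With 10 genes, 1 call cannot be set apart from these shares. At an unadjusted p under 0.05 there were 5 higher and 0 lower at 2 d against sham, 2 higher and 1 lower at 7 d against sham, and 0 higher and 4 lower at 7 d against 2 d. Over all genes the unadjusted shares were 12.3% higher and 9.38% lower, 11.7% and 7.91%, and 10.3% and 10.6% in the same comparisons. The groups did not overlap for 3 higher genes (Slc2a1, Hk2 and Pgk1) and 0 lower at 2 d against sham, where 8.71% of all genes lay apart (5.65% higher, 3.06% lower). At 7 d against sham 1 was higher (Hk2) and 1 lower (Ldha), where 9.66% lay apart (5.8% higher, 3.87% lower). At 7 d against 2 d 0 were higher and 1 was lower (Ldha), where 4.41% lay apart (2.28% higher, 2.13% lower). The median log2 fold change of the 10 was 0.28 at 2 d against sham, 0.05 at 7 d against sham and -0.23 at 7 d against 2 d, beside -0.01, -0.01 and 0.01 over all genes. The comparisons share samples, so their directions are not independent.

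**Figure D2:**
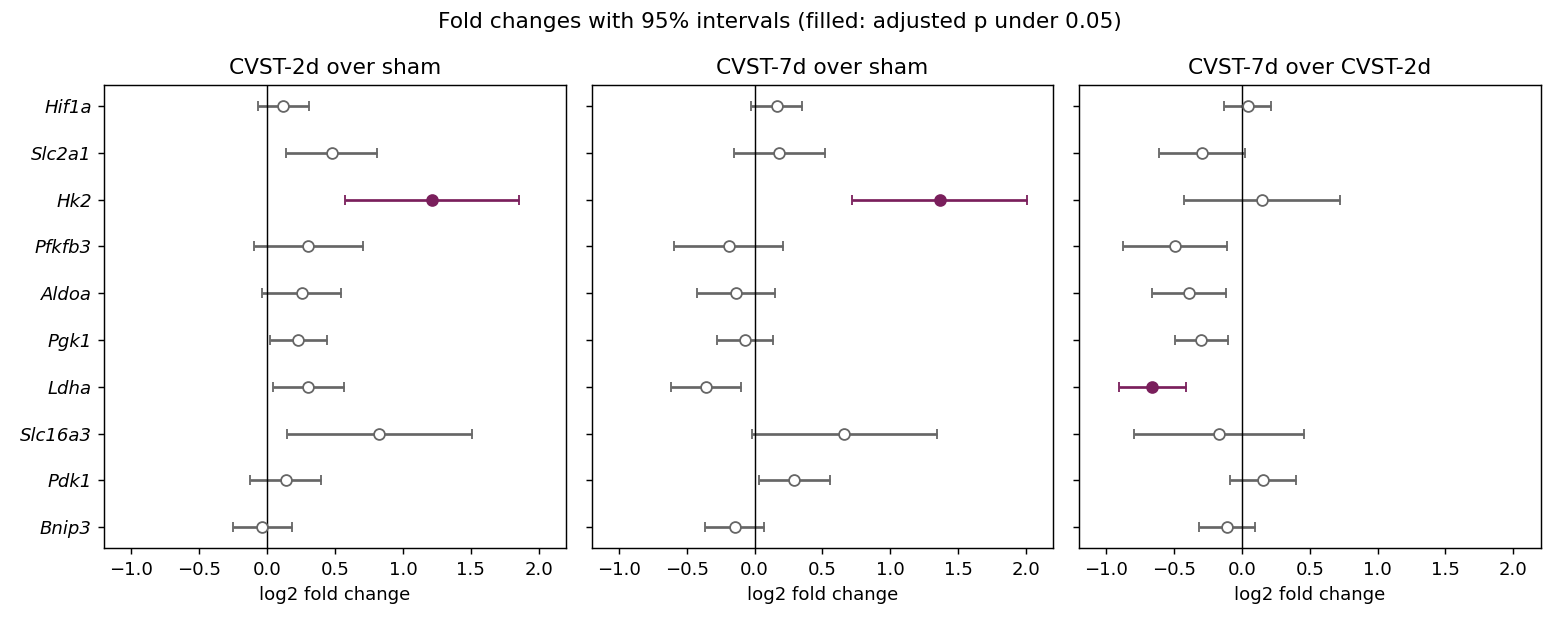
Log2 fold changes (horizontal axes) with 95% intervals for the 10 genes in CVST-2d over sham, CVST-7d over sham and CVST-7d over CVST-2d; filled points have an adjusted p under 0.05. Hk2 stands at 1.21 and 1.36 against sham, and Ldha at -0.66 between the times.

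Hif1a (ENSMUSG00000021109) encodes the oxygen-regulated alpha subunit of HIF. Its level ran from 79.1 to 107 CPM in CVST-2d, from 85.0 to 101 CPM in CVST-7d and from 79.0 to 85.1 CPM in sham. Above the highest sham sample stood 3 of 5 CVST-2d and 4 of 5 CVST-7d samples, so the groups overlapped. The log2 fold change was 0.12 ± 0.09 (SE; 95% interval -0.07 to 0.31; edgeR adjusted p = 0.450) at 2 d and 0.16 ± 0.09 (-0.02 to 0.35; adjusted p = 0.325) at 7 d. Hif1a mRNA was thus within a narrow band in every group, and the interval at 7 d holds no change larger than 0.35 on the log2 scale.

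Slc2a1 (ENSMUSG00000028645) encodes GLUT1, the glucose carrier of the blood-brain barrier and of astrocytes. It measured 109.9, 108, 103, 119.9 and 146 CPM in CVST-2d samples 1 to 5, and 76.9, 92.9, 80.9, 135 and 91.4 CPM in CVST-7d samples 1 to 5. The sham samples 1 to 4 had 98.9, 70.7, 81.3 and 85.8 CPM. All 5 CVST-2d samples lay above the sham range, whereas at 7 d only sample 4 did. The log2 fold change at 2 d was 0.48 ± 0.16 (SE), with an edgeR adjusted p of 0.101. It passed with DESeq2 (adjusted p = 0.0460), with voom and sample quality weights (0.0361) and without CVST-7d sample 4 (0.0406). At 7 d it was 0.18 ± 0.16 against sham (adjusted p = 0.567), and 0.02 without CVST-7d sample 4. The highest Slc2a1 of all belonged to CVST-2d sample 5, one of the samples that otherwise lay beside sham. Without both such samples the log2 fold change at 2 d was 0.39 (adjusted p = 0.127). Summed endothelial markers ran from 221 to 352 CPM in CVST-2d, 204 to 281 CPM in CVST-7d and 190 to 257 CPM in sham, none of the 7 at 0 in any sample, with 2 of 7 higher at 2 d and 0 of 7 at 7 d. Their part in the Slc2a1 values was not tested.

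Hk2 (ENSMUSG00000000628) encodes hexokinase II, the inducible form of the enzyme that traps glucose in the cell, known in the brain chiefly from microglia. It measured 9.36, 11.8, 8.38, 13.1 and 4.98 CPM in CVST-2d samples 1 to 5. CVST-7d samples 1 to 5 had 8.29, 6.72, 7.96, 16.7 and 13.1 CPM, and sham samples 1 to 4 had 4.41, 3.63, 4.70 and 3.66 CPM. Every CVST sample lay above every sham sample, although CVST-2d sample 5 did so only just. The means were 9.53 ± 3.16 CPM in CVST-2d, 10.6 ± 4.20 CPM in CVST-7d and 4.10 ± 0.538 CPM in sham (SD, n = 5, 5 and 4). Hk2 rose 2.32-fold at 2 d, a log2 fold change of 1.21 ± 0.30 (SE; 95% interval 0.57 to 1.86; edgeR adjusted p = 0.0393). It rose 2.57-fold at 7 d (1.36 ± 0.30; 0.72 to 2.01; adjusted p = 0.0230). Between the times, 7 d against 2 d, the log2 fold change was 0.15 ± 0.27 (-0.43 to 0.72; adjusted p = 0.796), so neither a fall nor a further rise can be told at this spread.

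The Hk2 calls sat close to the threshold. The 2 d call was lost without sham sample 1, 2, 3 or 4 (edgeR adjusted p = 0.0718, 0.124, 0.0982 and 0.104) and without CVST-2d sample 1, 2, 3 or 4 (0.0786, 0.0883, 0.0619 and 0.0777). The 7 d call was lost without sham sample 1, 2, 3 or 4 (0.0514, 0.0756, 0.0700 and 0.0792) and without CVST-7d sample 4 or 5 (0.0571 and 0.0502). Over all genes, leaving out 1 sample moved the calls at 2 d from 669 to between 76 and 1967, and at 7 d from 752 to between 119 and 1035. Both lowest counts came without sham sample 3. The Hk2 log2 fold change stayed between 1.07 and 1.38 at 2 d, and between 1.14 and 1.497 at 7 d, whichever sample was left out. Without both CVST-2d sample 5 and CVST-7d sample 2 it was 1.39 at 2 d (adjusted p = 0.00391) and 1.51 at 7 d (adjusted p = 0.00234). Both samples were picked for lying beside sham in these same data, and had the lowest Hk2 of their groups (4.98 and 6.72 CPM). Leaving them out raises the difference from sham by construction, so this fit is no check of the calls. On the FPKM scale CVST-2d sample 5, at 0.94, lay within the sham range, and limma gave adjusted p-values of 0.0545 at 2 d and 0.0754 at 7 d. For Hk2 the ratio of FPKM to CPM ran from 0.181 to 0.300 over the samples, so the 2 scales are not a fixed multiple of each other. It would be fixed only if a gene kept 1 length and both scales used the same depth, and CPM here use TMM-scaled depth.

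Markers of myeloid cells also differed between the groups, and followed Hk2 in part from sample to sample. The summed level of 6 microglial markers ran from 191 to 430 CPM in CVST-2d, 277 to 713 CPM in CVST-7d and 208 to 242 CPM in sham, with 0 of 6 called higher at 2 d (edgeR; 2 of 6 higher and 1 lower at an unadjusted p under 0.05) and 2 of 6 at 7 d. The 6 monocyte and macrophage markers summed to 115 to 471 CPM in CVST-2d, 95.6 to 2461 CPM in CVST-7d and 69.4 to 83.2 CPM in sham, with 2 of 6 called higher at 2 d and 3 of 6 at 7 d. No microglial marker was at 0 in any sample, and of the monocyte and macrophage markers Arg1 was at 0 in CVST-7d sample 2 and in 2 sham samples. The 2 CVST-7d samples with the highest Hk2, samples 4 and 5, also had the highest microglial sums, and CVST-2d sample 5, with the lowest Hk2 of the CVST samples, had the lowest. Other samples did not keep this order. CVST-2d sample 4 had the highest Hk2 of its group but the second-lowest microglial sum, 319 CPM, while CVST-2d sample 2 had the highest sums of that group in both lists. CVST-7d sample 4, with the highest Hk2 of all, had a monocyte and macrophage sum of 563 CPM, below the 649.9 CPM of CVST-7d sample 1. Markers of proliferating cells summed to 7.41 to 101 CPM in CVST-2d, 15.6 to 85.6 CPM in CVST-7d and 6.84 to 8.46 CPM in sham, with 7 of 8 and 1 of 8 called higher. Cortex was sequenced in bulk, so more cells of a type and more RNA per cell cannot be told apart, and the part of these cells in the Hk2 values was not tested.

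**Figure D3:**
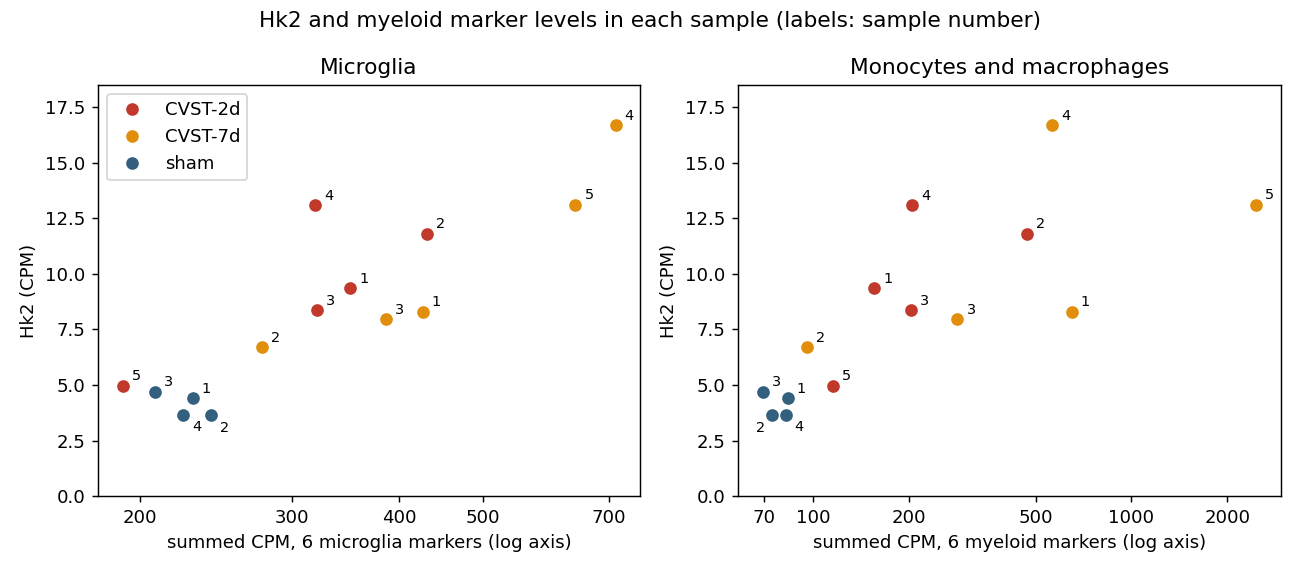
Hk2 level (vertical axes, CPM) against the summed level of 6 microglial markers and of 6 monocyte and macrophage markers (horizontal log axes, CPM) in each of the 14 samples, with sample numbers beside the points. CVST-7d samples 4 and 5 lie at the upper right in the microglial panel, and CVST-2d sample 5 lies at the left in it, with a microglial sum of 191 CPM, below the sham range, and an Hk2 level just above it.

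Among all genes tested, those whose log2 CPM followed Hk2 most closely over the 14 samples were Ikzf1, Apbb1ip and Itgam, with Pearson r of 0.969, 0.968 and 0.962. These values describe samples that share group, tissue and sequencing and carry no test. Ikzf1 is a transcription factor of blood and immune cells, Apbb1ip an adaptor of integrin activation in leukocytes, and Itgam the integrin chain CD11b of myeloid cells. Ikzf1 averaged 8.31 CPM in CVST-2d, 10.3 CPM in CVST-7d and 3.13 CPM in sham. It was called higher at both times, whereas Apbb1ip and Itgam were called at 7 d (adjusted p = 0.0315 and 0.0359) and missed the threshold at 2 d (0.0550 and 0.0879).

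Pfkfb3 (ENSMUSG00000026773) encodes the enzyme that makes the strongest activator of phosphofructokinase. It ranged from 36.4 to 63.6 CPM in CVST-2d, 24.7 to 45.4 CPM in CVST-7d and 36.8 to 45.0 CPM in sham. The groups overlapped, with 2 of 5 CVST-2d samples above the sham range and 2 of 5 CVST-7d samples below it. Neither difference from sham passed (0.30 ± 0.19, edgeR adjusted p = 0.372, at 2 d and -0.19 ± 0.19, adjusted p = 0.626, at 7 d). At 7 d against 2 d the log2 fold change was -0.49 ± 0.18 (adjusted p = 0.133), and it passed with voom alone (0.0349).

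Aldoa, Pgk1 and Ldha stand further down the same pathway and, of the 10 genes, had the highest levels. Aldoa (ENSMUSG00000030695) encodes aldolase A, which cleaves the sugar bisphosphate. It measured 2147, 1344, 1642, 1702 and 1514 CPM in CVST-2d samples 1 to 5 and 1298, 1444, 1415, 984 and 1235 CPM in CVST-7d samples 1 to 5. Sham samples 1 to 4 had 1320.3, 1273, 1504 and 1503 CPM. Above the sham range lay 4 of 5 CVST-2d samples, and 2 of 5 CVST-7d samples lay below it. Its log2 fold change was 0.25 ± 0.14 at 2 d (edgeR adjusted p = 0.291), -0.13 ± 0.13 at 7 d (adjusted p = 0.626) and -0.39 ± 0.13 at 7 d against 2 d (adjusted p = 0.106; 0.0449 with DESeq2).

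Pgk1 (ENSMUSG00000062070) encodes phosphoglycerate kinase, the first ATP-yielding step of glycolysis. It measured 519, 398, 423, 445 and 386 CPM in CVST-2d samples 1 to 5 and 376, 394, 368, 302 and 326 CPM in CVST-7d samples 1 to 5. Sham samples 1 to 4 had 368, 364, 366 and 383 CPM. All 5 CVST-2d samples lay above the sham range, while the CVST-7d samples lay on both sides of it. Against sham it differed by 0.23 ± 0.10 on the log2 scale at 2 d (edgeR adjusted p = 0.186) and -0.07 ± 0.10 at 7 d (adjusted p = 0.744). At 7 d against 2 d it was -0.30 ± 0.09 (adjusted p = 0.0886), and it passed with DESeq2 (0.0300), without CVST-2d sample 5 (0.0397) and without both samples that lay beside sham (0.0373). Those samples had the lowest Pgk1 of CVST-2d and the highest of CVST-7d, so leaving them out widens this difference by construction.

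Ldha (ENSMUSG00000063229) encodes the M chain of lactate dehydrogenase, which favours the making of lactate from pyruvate. It measured 219, 216, 233, 176 and 238 CPM in CVST-7d samples 1 to 5, against 419, 288, 318, 393 and 292 CPM in CVST-2d samples 1 to 5. Sham samples 1 to 4 had 249, 282, 278 and 299 CPM, and the highest of them overlapped the CVST-2d range. All 5 CVST-7d samples were below all 5 CVST-2d samples and below all 4 sham samples. The means were 216 ± 24.2 CPM in CVST-7d, 342 ± 60.0 CPM in CVST-2d and 277 ± 20.6 CPM in sham (SD, n = 5, 5 and 4). Ldha was lower at 7 d than at 2 d by a log2 fold change of -0.66 ± 0.12 (SE; 95% interval -0.91 to -0.41; edgeR adjusted p = 0.0137), or 0.632 of the 2 d level. The call held without each of the 14 samples in turn (adjusted p between 0.00486 and 0.0365) and on the FPKM scale (-0.64; adjusted p = 0.0213). Neither difference from sham passed: 0.30 ± 0.12 at 2 d, with 3 of 5 samples above the sham range (adjusted p = 0.170), and -0.36 ± 0.12 at 7 d (adjusted p = 0.115).

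The same samples were extreme in these last 3 enzymes. CVST-2d sample 1 was the highest of all 14 in Aldoa, Pgk1 and Ldha, and CVST-7d sample 4 was the lowest of all 14 in each. CVST-7d sample 4 was also the highest CVST-7d sample in Slc2a1, Hk2 and Pfkfb3. In Hk1 and Slc2a3, which are related to Hk2 and Slc2a1, it was instead the lowest of all 14, at 282 and 109 CPM. In Pfkfb2, which is related to Pfkfb3, it lay within the sham range at 15.7 CPM. Without CVST-2d sample 1 the log2 fold change of Ldha at 7 d against 2 d was -0.58, and that of Aldoa was -0.29.

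**Figure D4:**
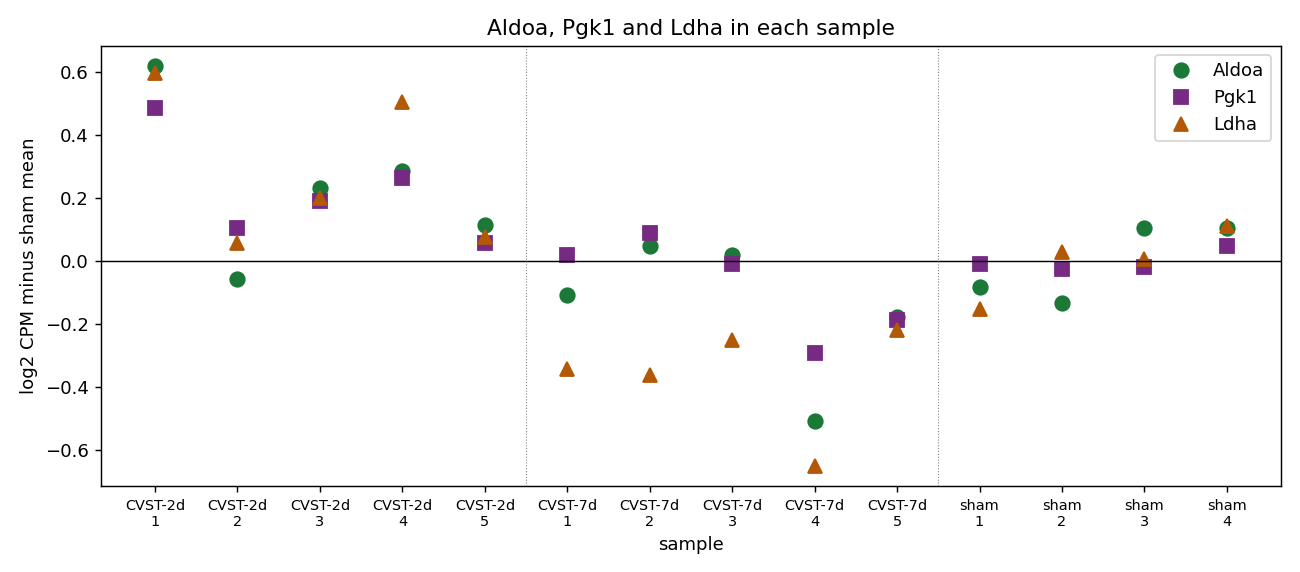
Log2 CPM of Aldoa, Pgk1 and Ldha minus the mean of the sham samples (vertical axis, log2 units) in each of the 14 samples. CVST-2d sample 1 is highest and CVST-7d sample 4 lowest for all 3 genes, and Ldha is below the sham mean in all 5 CVST-7d samples.

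The genes that followed Ldha most closely over the 14 samples were Vstm2b, Tbc1d10a and Sar1a (Pearson r 0.948, 0.945 and 0.938, with no test). Sar1a encodes a small GTPase of vesicle budding from the endoplasmic reticulum. Of these, Vstm2b was called lower at 7 d than at 2 d, with a mean of 34.2 CPM against 51.9 CPM (log2 fold change -0.60; edgeR adjusted p = 0.0310), and Tbc1d10a missed the threshold (-0.49; 0.0536). Beside Ldha, summed astrocyte markers were 2985 to 4930 CPM in CVST-7d, 2128 to 2772 CPM in CVST-2d and 2551 to 3425 CPM in sham, with 3 of 6 higher at 7 d than at 2 d. Summed reactive astrocyte markers were 840.3 to 2926 CPM in CVST-7d, 766 to 2653 CPM in CVST-2d and 188 to 249 CPM in sham, with 0 of 8 called between the times (edgeR; 5 lower at an unadjusted p under 0.05). No astrocyte marker was at 0 in any sample, and of the reactive markers Lcn2 was at 0 in sham sample 3. Choroid plexus markers summed to 459 and 508 CPM in CVST-2d samples 1 and 4, which had the highest Ldha of that group. CVST-2d samples 2, 3 and 5 had 8.15, 12.5 and 82.1 CPM, and the CVST-7d samples 12.5 to 128 CPM. In sham samples 1 to 4 these sums were 54.3, 295, 13.6 and 883 CPM, so sham sample 4 exceeded every CVST sample. Among these markers Otx2 was at 0 in CVST-2d sample 3 and in sham sample 3. The part of astrocytes or choroid plexus in the Ldha values was not tested.

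Slc16a3 (ENSMUSG00000025161) encodes MCT4, the carrier through which glycolytic cells export lactate. It measured 4.93, 7.59, 3.27, 6.05 and 5.04 CPM in CVST-2d samples 1 to 5 and 2.65, 4.18, 5.16, 4.91 and 7.03 CPM in CVST-7d samples 1 to 5. Sham samples 1 to 4 had 3.06, 1.57, 4.504 and 2.96 CPM. Most CVST samples lay above the sham range, 4 of 5 at 2 d and 3 of 5 at 7 d, but the groups overlapped. Fitted log2 fold changes were 0.83 ± 0.32 at 2 d (95% interval 0.15 to 1.51; edgeR adjusted p = 0.151) and 0.66 ± 0.32 at 7 d (-0.02 to 1.34; adjusted p = 0.272). After Hk2 these were the largest differences from sham among the 10 genes, with wide intervals at this low level.

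Pdk1 (ENSMUSG00000006494) encodes a kinase that switches off pyruvate dehydrogenase and so keeps pyruvate out of mitochondria. It ranged from 65.1 to 82.2 CPM in CVST-2d, 68.3 to 101 CPM in CVST-7d and 54.5 to 73.9 CPM in sham. The groups overlapped, and the log2 fold change was 0.14 ± 0.12 at 2 d (edgeR adjusted p = 0.550) and 0.29 ± 0.12 at 7 d (adjusted p = 0.193). Bnip3 (ENSMUSG00000078566) encodes an outer mitochondrial membrane protein that marks mitochondria for autophagy. It ranged from 103 to 133 CPM in CVST-2d, 94.7 to 125 CPM in CVST-7d and 114 to 137 CPM in sham. Of the 5 CVST-7d samples 4 lay below the sham range, in which sham sample 1, at 137 CPM, stood apart from the next at 118 CPM. The log2 fold change was -0.04 ± 0.10 at 2 d (95% interval -0.25 to 0.18; adjusted p = 0.873) and -0.15 ± 0.10 at 7 d (-0.36 to 0.07; adjusted p = 0.457). Bnip3 was thus the gene of the 10 nearest to no difference at 2 d.

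Each HIF target other than Pgk1, and Hif1a itself, was set beside a related gene, which gave 9 pairs. The relative Bnip3l is itself in the list of other hypoxia-inducible genes below. A pair therefore need not set a HIF target against a gene outside HIF control. The difference in log2 CPM between a gene and its relative was compared by a 2-sided exact permutation test over samples, 27 tests in all, and 0 passed after adjustment over the 27. The smallest p that 5 against 5 or 5 against 4 samples allow is 0.00794. A single pair at that p cannot pass the adjustment over 27 tests, so 0 passing does not show that the pairs were unchanged. Ldha against Ldhb, which encodes the H chain that favours the reverse reaction, reached that smallest p. Their log2 CPM difference averaged -0.59 ± 0.24 in CVST-7d, 0.11 ± 0.43 in CVST-2d and -0.34 ± 0.16 in sham (SD), and the change at 7 d against 2 d was -0.71, lower in 5 of 5 samples (exact permutation p = 0.00794, adjusted p = 0.171). On the FPKM scale Ldha made up 29.0% to 36.8% of the pair in CVST-7d, 39.0% to 56.5% in CVST-2d and 33.7% to 39.6% in sham. At 7 d the Ldha share of the pair's mRNA therefore lay below that of every CVST-2d sample, and overlapped the sham range.

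Of the hexokinase pair, Hk1, the housekeeping brain form, held nearly all of the FPKM. Hk2 made up 0.849% to 3.60% of the FPKM of the pair in CVST-2d, 1.14% to 3.97% in CVST-7d and 0.677% to 1.09% in sham. The Hk2 minus Hk1 difference was higher by 0.96 at 2 d (exact permutation p = 0.0238, 4 of 5 samples above sham) and by 1.32 at 7 d (p = 0.0159, 5 of 5), with an adjusted p of 0.171 each. At 7 d against 2 d the differences Aldoa minus Aldoc (-0.77; exact permutation p = 0.0317), Pfkfb3 minus Pfkfb2 (-0.63; p = 0.0397) and Bnip3 minus Bnip3l (-0.27; p = 0.0317) were lower, with adjusted p of 0.171 to 0.179. Aldoc is the astrocytic aldolase, Pfkfb2 another isoform of the activator-making enzyme, and Bnip3l a second mitophagy receptor. The pairs Hif1a and Epas1, Slc2a1 and Slc2a3, Slc16a3 and Slc16a1, and Pdk1 and Pdk2 had exact p of 0.0635 or more in every comparison.

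Further genes of the same pathways were taken as lists. Of 22 other glycolytic enzymes and regulators, 21 were tested. By edgeR 0 were called at 2 d against sham and 0 at 7 d against sham, where 3.95% and 4.44% of all genes were. At an unadjusted p under 0.05 there were 4 higher and 1 lower at 2 d and 1 higher and 1 lower at 7 d, and DESeq2 called 1 at each time. Over all genes the unadjusted shares were 12.3% higher and 9.38% lower at 2 d and 11.7% and 7.91% at 7 d. A single list gene was called lower at 7 d than at 2 d (1 of 21, where 1.25% of all genes were), Pfkl, the liver-type phosphofructokinase. Pfkl measured 131, 139, 134, 131 and 131 CPM in CVST-7d samples 1 to 5, against 219, 153, 169, 196 and 149 CPM in CVST-2d samples 1 to 5 (log2 fold change -0.41 ± 0.10; edgeR adjusted p = 0.0429). All CVST-7d samples lay below all CVST-2d samples, but of 14 fits without 1 sample the call held in 3, those without sham sample 1 and CVST-2d sample 2 or 5. It was lost without sham sample 2, 3 or 4, CVST-2d sample 1, 3 or 4, or any CVST-7d sample (adjusted p = 0.0539 to 0.0956). In that comparison 6 of 21 were lower at an unadjusted p under 0.05, where 10.6% of all genes were lower. The list median was -0.15, beside 0.01 over all genes. Hk3, the hexokinase of myeloid cells, had the largest difference of the list from sham, with 4.65 ± 3.08 CPM in CVST-2d, 4.84 ± 4.08 CPM in CVST-7d and 1.22 ± 0.128 CPM in sham (SD), and did not pass (adjusted p = 0.0820 and 0.0743); it was named after its values were seen.

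Of 15 genes of glucose and lactate transport and pyruvate entry, 14 were tested. By edgeR 0 were called at 2 d, 1 at 7 d against sham and 0 between the times, where 3.95%, 4.44% and 2.8% of all genes were. The unadjusted counts were 1 higher and 1 lower at 2 d, 2 higher and 3 lower at 7 d, and 3 higher and 1 lower between the times, and DESeq2 and voom each called 1 at 2 d. The gene called was Slc16a1, which encodes MCT1, the lactate carrier of endothelium, astrocytes and oligodendrocytes. It measured 47.2, 50.9, 68.5, 74.9 and 47.8 CPM in CVST-7d samples 1 to 5, against 41.6, 41.9, 32.7 and 36.8 CPM in sham samples 1 to 4. The groups did not overlap, and Slc16a1 rose by 0.60 ± 0.14 on the log2 scale (edgeR adjusted p = 0.0321). The call was lost without sham sample 1, 2, 3 or 4 (adjusted p = 0.0531, 0.0643, 0.118 and 0.0991) and without CVST-7d sample 3 or 4 (0.0611 and 0.0776). At 2 d the log2 fold change was 0.51 with an adjusted p of 0.0620.

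The 10 other genes of HIF and oxygen sensing include the partner subunits and the prolyl hydroxylases that mark HIF for destruction. They gave 0 calls in each of the 3 comparisons by edgeR, DESeq2 and voom. By edgeR 3.95%, 4.44% and 2.8% of all genes were called. At an unadjusted p under 0.05 there was 0 higher and 1 lower each time. These were Hif1an at 2 d (-0.20; adjusted p = 0.170), Egln2 at 7 d (-0.26; 0.0979) and Egln3 at 7 d against 2 d (-0.48; 0.151), named after their values were seen. Over all genes the unadjusted shares were 12.3%, 11.7% and 10.3% higher and 9.38%, 7.91% and 10.6% lower. With 10 genes, these counts cannot be set apart from the shares over all genes. The list medians were -0.0051, -0.08 and 0.06, beside -0.01, -0.01 and 0.01 over all genes.

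Other hypoxia-inducible genes moved in both directions. Of 28, 27 were tested; edgeR called 1 higher and 1 lower at 2 d, 0 higher and 3 lower at 7 d, and 0 higher and 1 lower at 7 d against 2 d, where 3.95%, 4.44% and 2.8% of all genes were called. At an unadjusted p under 0.05 there were 5 higher and 4 lower at 2 d, 6 higher and 7 lower at 7 d, and 2 higher and 7 lower at 7 d against 2 d. Over all genes these unadjusted shares were 12.3% higher and 9.38% lower, 11.7% and 7.91%, and 10.3% and 10.6%. DESeq2 called 3 higher and 2 lower at 2 d, 3 higher and 4 lower at 7 d, and 0 higher and 2 lower between the times. The one that edgeR called higher was Adm, which it also called lower between the times. Adm, the vessel-dilating peptide adrenomedullin, measured 2.08, 3.98, 3.14, 2.92 and 6.14 CPM in CVST-2d samples 1 to 5, against 1.76, 0.848, 0.651 and 0.970 CPM in sham samples 1 to 4, and 0.996 to 1.67 CPM in CVST-7d. It rose by 1.79 ± 0.34 at 2 d on the log2 scale (edgeR adjusted p = 0.0155) and was lower at 7 d than at 2 d (-1.49 ± 0.31; adjusted p = 0.0241). All 5 CVST-2d samples lay above the sham and the CVST-7d range.

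Vegfa, P4ha1 and Ak4, all commonly raised by hypoxia, were lower than in sham at 7 d. Vegfa, the vascular growth factor, measured 45.4, 38.2, 49.3, 51.5 and 49.1 CPM in CVST-7d samples 1 to 5, against 82.8, 74.4, 66.7 and 68.6 CPM in sham samples 1 to 4. It fell by 0.65 on the log2 scale (SE 0.12; edgeR adjusted p = 0.0110), and the call held without each sample in turn (0.00763 to 0.0413). P4ha1, a collagen prolyl hydroxylase, ran from 35.3 to 51.1 CPM in CVST-7d and from 55.1 to 68.9 CPM in sham (-0.54 ± 0.10; adjusted p = 0.0136; lost without sham sample 2, 0.0523, or 4, 0.0578). Already at 2 d the log2 fold change against sham was -0.36 for Vegfa and -0.31 for P4ha1 (edgeR adjusted p = 0.0980 and 0.104). Below the sham range lay 4 of 5 CVST-2d samples for Vegfa and 5 of 5 for P4ha1. Neither gene was called at 7 d against 2 d (0.155 and 0.202). Ak4, a mitochondrial adenylate kinase, ran from 35.7 to 54.4 CPM in CVST-2d, 37.97 to 53.0 CPM in CVST-7d and 57.5 to 72.0 CPM in sham. It was called lower at both times (-0.60 ± 0.13, adjusted p = 0.0296, and -0.52 ± 0.13, adjusted p = 0.0417). The Ak4 call held in 7 of 14 fits without 1 sample at each time. The list had a median of -0.04 at 2 d, -0.02 at 7 d and -0.05 between the times, beside -0.01, -0.01 and 0.01 over all genes.

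The Adm call at 2 d was lost without sham sample 2, 3 or 4 (adjusted p = 0.0668, 0.0675 and 0.0598). Between the times Adm was lost without CVST-7d sample 3 or 4 (0.0540 and 0.0667). Ak4 at 2 d was lost without sham sample 1, 2, 3 or 4 (0.0535, 0.0670, 0.103 and 0.0802) or CVST-2d sample 1, 2 or 3 (0.0698, 0.0703 and 0.0620). At 7 d it was lost without any sham sample (0.0674, 0.0723, 0.144 and 0.107) or CVST-7d sample 1, 4 or 5 (0.0792, 0.105 and 0.1003).

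**Figure D5:**
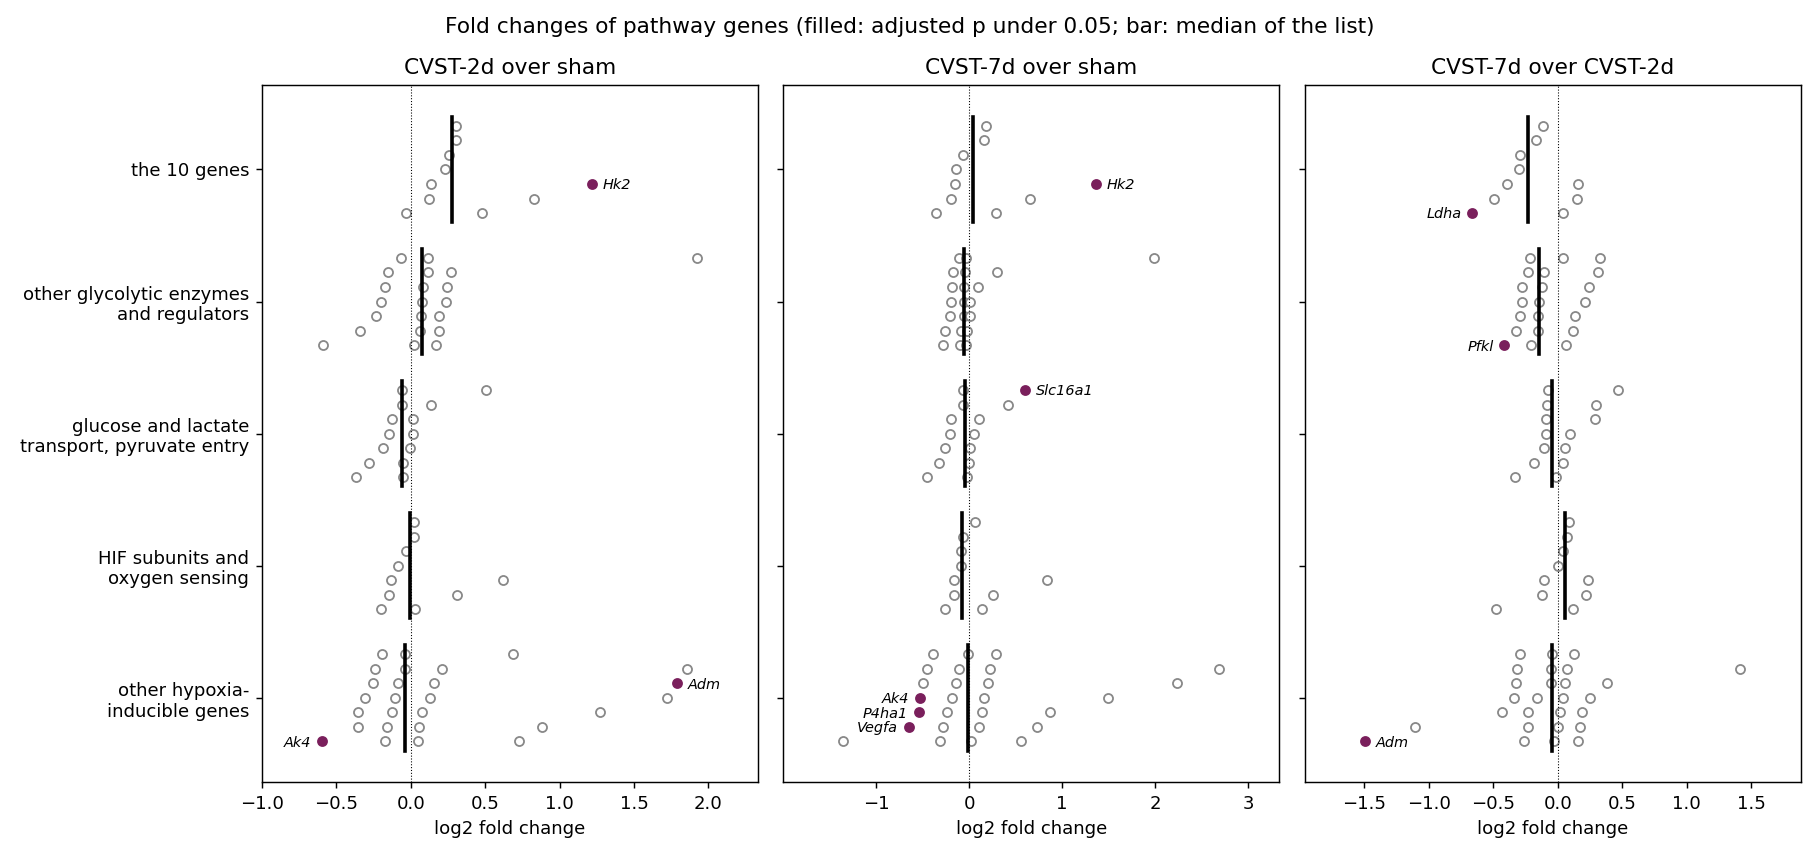
Log2 fold changes (horizontal axes) of the 10 genes and of 4 lists of related genes in the 3 comparisons, each point 1 gene; filled points have an adjusted p under 0.05 and bars are list medians. Of the filled points at 2 d, Hk2 and Adm stand to the right and Ak4 to the left. At 7 d against sham, Hk2 and Slc16a1 stand to the right, and Vegfa, P4ha1 and Ak4 to the left. At 7 d against 2 d, Ldha, Pfkl and Adm stand to the left. The HIF and oxygen-sensing list holds no filled point.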

How the data were processed

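Per the labels' protocols, total RNA of frozen cortex was made into NEBNext Ultra libraries, with no strand setting named. The submitters' processing notes name fastp, HISAT2, DESeq2 1.16.1 and build mm39. No source used here names the counting tool or annotation. The authors deposited raw counts and FPKM for 14 samples, with no per-sample column unused. Of 55894 entries, 535 without an Ensembl gene (0.203% to 0.278% of counts) were left out. Replicates differed beyond sampling noise (lowest chi-square per degree of freedom 7.76).

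The counts were fitted with edgeR 4.0.16 in R 4.3.3 over all 14 samples (filterByExpr, TMM, quasi-likelihood test, checked on simulated data). CPM use TMM-scaled depth, and log2 CPM a prior count of 2. Alternatives were DESeq2 1.42.0 (size factors; Wald test), limma 3.58.1 voom with quality weights, limma on log2 of FPKM plus 0.1, no filter, fits of 2 groups, a replicate block and leaving out samples.

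The genes, lists and naming rule were chosen with earlier results of these data known. Named are the 10 genes, their relatives, list genes called where 6 or fewer were, and the 3 genes most like each called member. A gene of the hypoxia-inducible list is not reported here and was taken out of it. Sequences are from RefSeq (GRCm38.p6); mm39 coordinates were not used here. Reads of near-identical copies can be miscounted; over 14 samples Aldoart1, Aldoart2, Pgk2, Ldhc and Ldhal6b had 0, 7, 1, 7 and 12 counts.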

Additional observations from a re-analysis of the deposited data

Results flagged for a closer look

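Ldha differed between the times by a test of that difference: its log2 fold change against sham was -0.36 at 7 d and 0.30 at 2 d, and the contrast of 7 d with 2 d was -0.66 (edgeR adjusted p = 0.0137). Among the 30 groups of CPM values of the 10 genes, 2 held a sample far from the others of its group, where chance flags about 5% of groups. Slc2a1 in CVST-7d sample 4 was 135 CPM against 92.9 CPM in the next sample, a gap of 0.726 of the group's range. Bnip3 in sham sample 1 was 137 CPM against 118 CPM in the next, a gap of 0.857 of the range. No cause was tested for these values.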

How the results depend on the processing

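Of 660 alternative values for the 10 genes in 3 comparisons, 652 kept their direction, and so did all 66 for the 3 calls. No scaling moved the median of all genes by over 0.1 on the log2 scale. Hk2 and Slc16a3, the lowest of the 10 genes in count, had the widest intervals. Same-numbered samples gave r from -0.44 to 0.28 over 13 pairs, 2 of them over 0.1, and 0 of 14 samples correlated best with their own number. The replicate block called 0 members in each comparison (Hk2, adjusted p = 0.0790 and 0.0988; Ldha, 0.0545), and 0, 1 and 0 other hypoxia-inducible genes, 0 glycolytic enzymes at 7 d against 2 d and 0 transport genes at 7 d. The other counts, taken in the order 2 d against sham, 7 d against sham and 7 d against 2 d, are given where they moved. For members, DESeq2 called 2 at 2 d and 3 between the times, voom 2 and 2, fits of 2 groups 2 at 2 d, limma on FPKM 0 and 0 against sham, and the fit without both samples that lay beside sham 2 between the times. For glycolytic enzymes, DESeq2 called 1, 1 and 2, voom 2 at 2 d, fits of 2 groups 1 at 2 d and 0 between the times, and no filter and FPKM 0 between the times. For transport, DESeq2, voom and fits of 2 groups called 1 at 2 d, and fits of 2 groups 0 at 7 d. For other hypoxia-inducible genes, DESeq2 called 5 and 7 against sham and 2 between the times, voom 7 at 2 d and 2 between the times, fits of 2 groups 4 at 2 d and 0 between the times, FPKM 1 at 2 d and 0 between the times, and the fit without both samples 4 and 7 against sham. Leaving out 1 sample gave 0 to 2, 0 to 1 and 1 to 2 members, 0 to 1, 0 to 1 and 0 to 2 glycolytic enzymes, 0 to 1 transport genes at 2 d and 0 to 1 at 7 d, 0 to 1 HIF genes at 7 d, and 0 to 4, 1 to 5 and 0 to 2 other hypoxia-inducible genes. Directions that turned belonged to values near 0: Bnip3 at 2 d (0.012 with voom and 0.0099 on FPKM; -0.076 to 0.040 without 1 sample), Hk2 at 7 d against 2 d (-0.10 with voom, -0.11 on FPKM; -0.077 to 0.29) and Slc16a1 at 7 d against 2 d (-0.018 to 0.16). Among pairs they were Slc2a1 minus Slc2a3 at 7 d against 2 d (-0.039 on FPKM; -0.23 to 0.12), Pfkfb3 minus Pfkfb2 at 7 d (0.03 without both samples; -0.11 to 0.081), Slc16a3 minus Slc16a1 at 7 d (-0.23 to 0.38), Pdk1 minus Pdk2 at 2 d (-0.10 to 0.10), and Hif1a minus Epas1 at 2 d (-0.00120 to 0.27) and at 7 d against 2 d (-0.17 to 0.10). The causes were not tested, except that leaving out samples or groups leaves fewer samples. The FPKM fit and the fit without both samples were chosen after seeing the data.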

Other observations

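The second entry named Aldoa, ENSMUSG00000114515, held 8 counts over the 14 samples, too few to be tested: 1 in CVST-2d sample 3, 4 in CVST-2d sample 5, 2 in CVST-7d sample 1 and 1 in CVST-7d sample 2, with 0 in the sham samples. The ratio of the deposited FPKM to CPM ran from 0.432 to 0.642 for Slc16a3 over the samples, a wider span than for any of the 10 genes but Hk2. For Aldoa, Pgk1, Ldha and Bnip3 it ran from 0.776 to 0.845, 0.610 to 0.661, 0.719 to 0.782 and 0.650 to 0.712.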
